A study of Mus musculus with 6 samples.

Results

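The Cyp2a and Cyp2b cytochrome P450 genes of mouse liver are described here through 7 genes, Cyp2a4, Cyp2a5, Cyp2a12, Cyp2a22, Cyp2b9, Cyp2b10 and Cyp2b13. They were taken by name from a table of 29734 genes, and each of the 7 names stood on 1 row. Liver mRNA, purified on oligo(dT) beads, was sequenced in 6 libraries from male mice. The mice were 8 weeks old when a diet labelled WD, read here as Western diet, began, and it lasted 20 weeks. Mice of the Prdx1 C52S group (3 libraries, numbered 1, 2 and 4) had the allele of peroxiredoxin 1, a thiol peroxidase, in which cysteine 52 is serine. Wild-type mice on the same diet made up the WT group (3 libraries, numbered 6, 8 and 9). The sources used here do not give strain, zygosity or whether a library is 1 animal, so p-values measure the spread between these libraries.

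Cytochrome P450 enzymes are heme proteins of the endoplasmic reticulum that insert oxygen into steroids, fatty acids, drugs and toxins, with electrons supplied by P450 reductase and cytochrome b5. Cyp2a5 is the coumarin hydroxylase of mouse liver, found around the central vein, and Cyp2a4 is its close copy and a steroid hydroxylase that is more abundant in female liver. Cyp2b10 is the classic phenobarbital-inducible P450 and a target of the constitutive androstane receptor (CAR, gene Nr1i3), whereas Cyp2b9 and Cyp2b13 are abundant in female liver and kept low in males by the pulses of growth hormone.

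The genes lie in 1 cluster on chromosome 7, in a stretch of 1140 kb of GRCm38. From the proximal end these are Cyp2b10 (ENSMUSG00000030483, 25897620 to 25926624), Cyp2b13 (ENSMUSG00000040583, 26061497 to 26096197), Cyp2b9 (ENSMUSG00000040660, 26173411 to 26210661) and Cyp2a4 (ENSMUSG00000074254, 26307169 to 26315088). Cyp2a5 (ENSMUSG00000005547, 26835305 to 26843548), Cyp2a22 (ENSMUSG00000091867, 26931631 to 26939384) and Cyp2a12 (ENSMUSG00000060407, 27029081 to 27037375) follow. Cyp2a22 is on the minus strand and the other 6 genes are on the plus strand. Cyp2a22 lies inside the pseudogene Cyp2a21-ps of the plus strand, Cyp2a4 overlaps Gm42375 on the minus strand, and Cyp2b13 overlaps Rnf170-ps on its own strand. The library kit marked strand, but the sources used here do not say whether counting used it, so reads of these overlapping genes are uncertain.

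Close copies limit how well reads can be assigned to single genes. The coding sequences of Cyp2a4 and Cyp2a5 were 98.4% identical, with 23 mismatches in 1482 bases and an identical run of 216 bases. Cyp2a12 and Cyp2a22 were 97% identical (45 mismatches), and Cyp2b9 and Cyp2b13 were 92.7% identical (107 mismatches). Cyp2a4 and Cyp2a12, in contrast, were 75.2% identical. The stretches below show the 90 bases within 1 coding exon (exon 4 of 9 and exon 7 of 9, GENCODE M21 transcripts) that differ most within the 2 pairs, with differing bases in capitals. They stand at chr7:26308970-26309059, chr7:26837133-26837222, chr7:26200805-26200894 and chr7:26088317-26088406 of GRCm38, plus strand.
Cyp2a4 exon 4: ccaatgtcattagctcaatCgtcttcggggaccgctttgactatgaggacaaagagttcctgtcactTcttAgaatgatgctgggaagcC
Cyp2a5 exon 4: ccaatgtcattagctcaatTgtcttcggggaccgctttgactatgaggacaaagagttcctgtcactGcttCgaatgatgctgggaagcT
Cyp2b9 exon 7: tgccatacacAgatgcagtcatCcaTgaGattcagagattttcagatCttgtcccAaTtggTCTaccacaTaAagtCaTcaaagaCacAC
Cyp2b13 exon 7: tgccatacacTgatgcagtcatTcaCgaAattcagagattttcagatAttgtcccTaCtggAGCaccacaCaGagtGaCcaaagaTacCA
There are 4 differing bases in the Cyp2a pair and 17 in the Cyp2b pair. Of the windows of 150 bases, the length of 1 read, 67 of 1589 (4.22%) in the Cyp2a4 transcript occurred unchanged in Cyp2a5. Of the Cyp2a5 windows, 108 of 1864 (5.79%) occurred elsewhere, 67 in Cyp2a4 and 41 in Cyp2a21-ps. Cyp2a12 and Cyp2a22 shared 57 windows, whereas Cyp2b9, Cyp2b10 and Cyp2b13 shared 0. Only unchanged windows were counted, so a count of 0 does not mean that reads cannot be misassigned. No window of 300 bases, the average insert length per the labels' protocol, was shared by any of the 7 transcripts.

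The sequence before the gene start was also nearly the same within the pairs. Over the 250 bases before the RefSeq start (GRCm38.p6), Cyp2a4 and Cyp2a5 were 97.6% identical, Cyp2b9 and Cyp2b13 99.2%, and Cyp2a12 and Cyp2a22 82.8%. The 150 bases that end before any annotated transcript of the gene itself are shown for the first pairs, again with differing bases in capitals. They stand at chr7:26307009-26307158, chr7:26835155-26835304, chr7:26173259-26173408 and chr7:26061345-26061494, plus strand. The Cyp2a4 stretch lies inside Gm42375, which is on the minus strand.
Cyp2a4 upstream: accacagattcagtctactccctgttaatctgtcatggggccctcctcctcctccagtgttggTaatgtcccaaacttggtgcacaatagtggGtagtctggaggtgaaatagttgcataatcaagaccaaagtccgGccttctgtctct
Cyp2a5 upstream: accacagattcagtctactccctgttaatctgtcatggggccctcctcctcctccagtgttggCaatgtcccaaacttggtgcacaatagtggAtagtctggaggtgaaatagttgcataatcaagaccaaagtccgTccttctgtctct
Cyp2b9 upstream: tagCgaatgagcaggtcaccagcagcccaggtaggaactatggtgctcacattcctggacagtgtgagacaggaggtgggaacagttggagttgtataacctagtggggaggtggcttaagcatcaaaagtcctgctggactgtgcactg
Cyp2b13 upstream: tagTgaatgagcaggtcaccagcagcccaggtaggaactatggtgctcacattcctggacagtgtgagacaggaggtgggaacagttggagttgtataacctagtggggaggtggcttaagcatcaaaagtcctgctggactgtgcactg
These windows of Cyp2a4 and Cyp2a5 differed at 3 positions and those of Cyp2b9 and Cyp2b13 at 1. Motif letters, picked after the sequences were read, were searched on both strands of the 300-base RefSeq windows. The letters CAAAGTCC of an HNF4 element stood at -55 in Cyp2a4 and -56 in Cyp2a5, in none of the other 5 genes, and in 1.42% of all 32851 windows. The C/EBP-like letters TTGNATAA stood at -70 and -71 in the same pair and at -59, -58 and -59 in Cyp2b9, Cyp2b10 and Cyp2b13, against 2.81% of all windows. The letters TATAAA stood at -28, -29, -39 and -28 in Cyp2a4, Cyp2a5, Cyp2a12 and Cyp2a22 and in no Cyp2b window, against 13.6% of all windows. The nuclear receptor letters AGGTCA stood at -138 in Cyp2b9 and Cyp2b13 and at 30 and 29 in Cyp2a4 and Cyp2a5, against 16.3%. The letters TTCNNNGAA of a STAT element were in none of the 7 windows and in 8.3% of all windows. A match is a description of letters and not a binding site.

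The 6 libraries held between 60326469 and 76164949 estimated counts, which at about 4 counts per fragment correspond to 15.1 to 19 M fragments. Prdx1 itself had 247 ± 12.2 FPKM (fragments scaled to transcript length and library size) in Prdx1 C52S and 246 ± 20.7 in WT (SD, n = 3 each), which does not check the genotype, since the substitution leaves the transcript in place. WT 8 stood apart. It had 30.9 FPKM of the bile duct keratin Krt19 against 0.507 to 3.97 in the other 5 libraries, 33.3 of the pericentral glutamine synthetase Glul against at least 252.9, and 2.56 of the Kupffer cell lectin Clec4f. All 10 hepatocyte markers were present in all 6 libraries, with summed levels of 35667 to 37095 FPKM in Prdx1 C52S and 34689 to 36195 in WT. These sums are mostly albumin, Alb, and single markers differed. In FPKM, 2 of the 10 did not overlap with Prdx1 C52S above, and 3 with it below, against 42.8% of all genes in either direction. The 3 lower ones overlapped after the TMM scaling described below. Positive log2 fold changes mean higher values in Prdx1 C52S. They come from edgeR after TMM scaling, which places the median of all genes 0.308 higher than scaling to library totals does, so that equal FPKM gives a positive value.

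Cyp2a5 was the most abundant of the 7 genes in both groups and the one whose groups stood clearly apart. Its FPKM was 543.9, 405 and 542.6 in Prdx1 C52S 1, 2 and 4, whereas WT 6, 8 and 9 had 93.4, 170.9 and 160.8. Every Prdx1 C52S library was above every WT library, with a gap between 405 and 170.9 FPKM. The means were 497 ± 79.8 and 142 ± 42.1 FPKM (SD, n = 3 each), a ratio of 3.51, and edgeR put the log2 fold change at 2.11 (SE 0.25). The quasi-likelihood test gave an adjusted p = 0.0553, above the threshold of 0.05. This was the smallest adjusted p of the 18931 genes tested and was shared by 65 of them. Ordered by the edgeR test, Cyp2a5 ranked 7 among all genes tested.

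**Figure D1:**
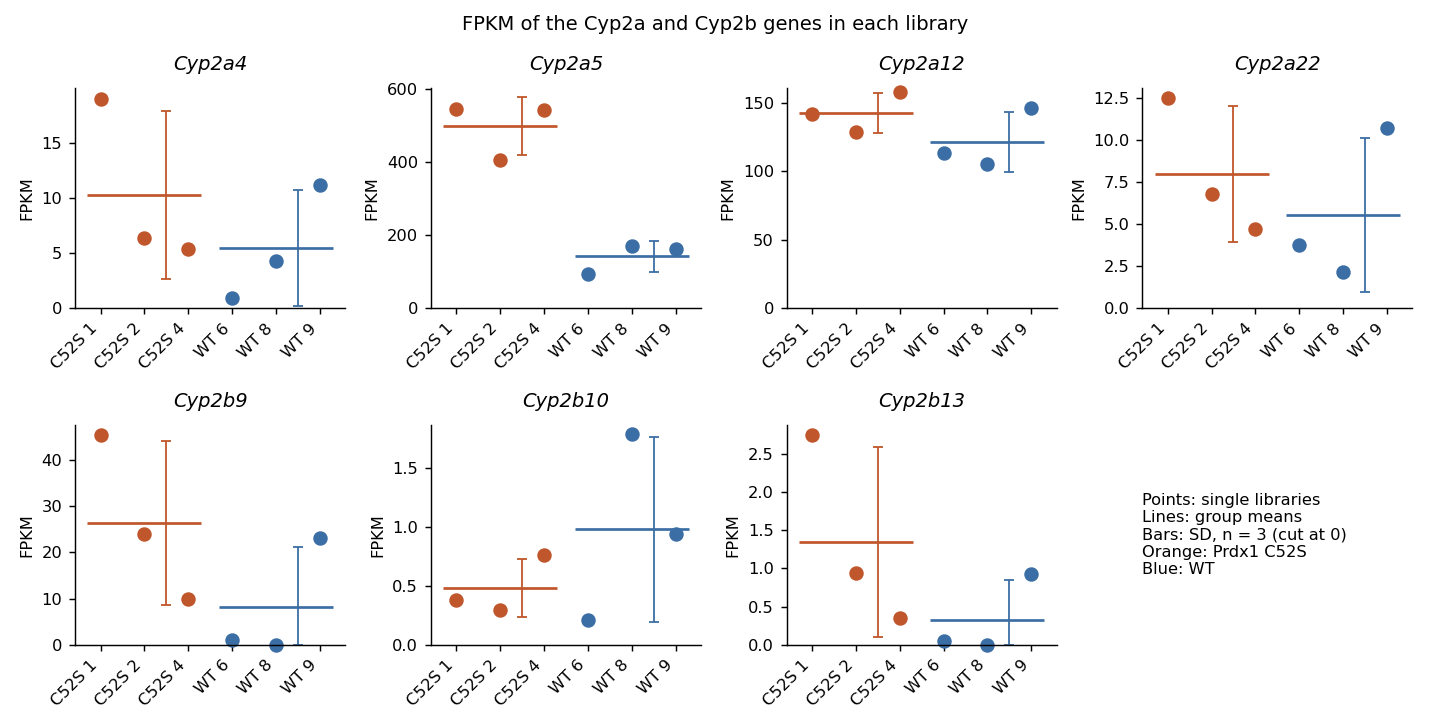
FPKM of the 7 Cyp2a and Cyp2b genes (vertical axes, linear from 0, scaled per gene) in the 3 Prdx1 C52S libraries (orange) and the 3 WT libraries (blue). Points are libraries, horizontal lines are group means and bars are SD. Cyp2a5 has groups that do not overlap, between 405 and 543.9 against 93.4 to 170.9, whereas WT 9 lies within the Prdx1 C52S range for Cyp2b9, Cyp2b13, Cyp2a4 and Cyp2a22.

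The test across all genes called 0 of the 7 genes, and 0% of all 18931 genes tested. At an unadjusted p under 0.05 it held 1 of the 7, Cyp2a5, against 26.3% of all genes, 11.5% with higher values in Prdx1 C52S. Groups did not overlap in FPKM for 1 of the 7 genes, against 42.8% of all genes, and 6.09% with Prdx1 C52S above. After TMM scaling, Cyp2a12 was added to Cyp2a5, against 34.9% of all genes, and 16.9% with Prdx1 C52S above. Positive fold changes were found for 6 of the 7 genes, against 47% of all genes, with a median log2 fold change of 1.16 beside -0.03 over all genes tested. DESeq2 called 1 of the 7, Cyp2a5 (adjusted p = 1.33e-16), and 16.5% of all genes, 7.39% higher. Cyp2a5 alone of the 7 was also called by voom with quality weights (10.7% of all genes, 5.4% higher), by limma on log2(FPKM + 1) (0.703%, 0.206% higher) and by limma on log2(FPKM + 0.1) (1.48%, 0.312% higher). The same held for edgeR with library totals only (0.845%, 0.185% higher), with no filter on low counts (0.659%, 0.353% higher) and with counts divided by 4 (0.533%, 0.276% higher). Without WT 8, edgeR called Cyp2a5 (log2 fold change 2.16, adjusted p = 0.027) and 4.64% of all genes, 2.7% higher. Without WT 9 it called Cyp2a5 (2.3, adjusted p = 0.0499) and 0.672% of all genes, 0.321% higher. At an unadjusted p under 0.05 the fit without WT 9 held 6 of the 7, against 30.2% of all genes and 13.6% higher. The median log2 fold change of the 7 was 0.52 without Prdx1 C52S 1 and 2.3 without WT 9. Without WT 6 the edgeR adjusted p of Cyp2a5 was 0.127, and without any 1 Prdx1 C52S library it ran from 0.156 to 0.273. The log2 fold change of Cyp2a5 itself was between 1.80 and 2.37 under every alternative run.

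Cyp2a12, a steroid hydroxylase of hepatocytes and the second most abundant gene of this set, was nearly level. Its FPKM was 141.9, 128.7 and 157.9 in Prdx1 C52S 1, 2 and 4, whereas WT 6, 8 and 9 had 113.1, 105.2 and 146.2. WT 9 was above Prdx1 C52S 1 and 2, so the groups overlapped. The means of 143 ± 14.6 and 122 ± 21.7 FPKM had a ratio of 1.18, and the log2 fold change of 0.50 (SE 0.22, edgeR adjusted p = 0.195) was 0.23 when only library totals were used.

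Both genes can be compared within a library, where scaling between libraries has no part. The ratio of Cyp2a5 to Cyp2a12 was 3.83, 3.15 and 3.44 in Prdx1 C52S 1, 2 and 4, whereas WT 6, 8 and 9 had 0.825, 1.62 and 1.10. The groups did not overlap in this ratio. That follows in part from Cyp2a5, whose own groups stood apart in the same libraries, and the ratio was not tested. Of the summed FPKM of the 4 Cyp2a genes, Cyp2a5 made up 74.1% to 76.4% with the C52S allele, whereas WT 6, 8 and 9 had 44.2%, 60.5% and 48.9%. The summed Cyp2a level was 658 ± 96.6 FPKM against 274 ± 59.3. The 7 genes together made up 9.25 ± 1.84% of the summed FPKM of all Cyp genes in Prdx1 C52S and 5.94 ± 1.82% in WT, and here WT 8 (7.43%) lay above Prdx1 C52S 2 (7.23%).

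**Figure D2:**
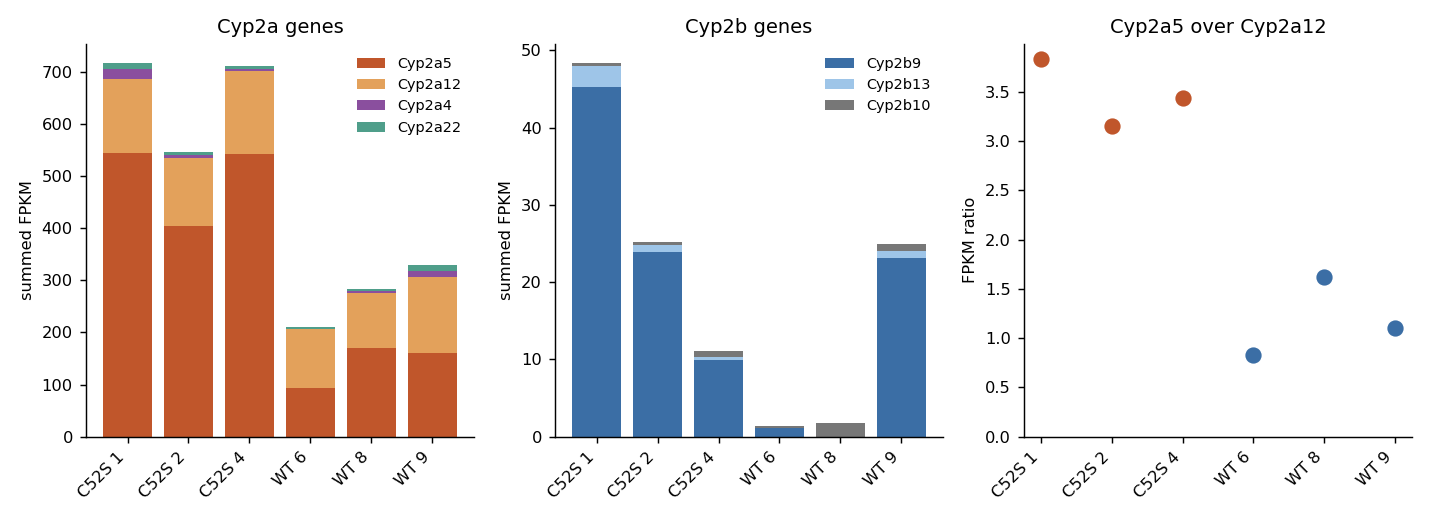
Stacked FPKM of the Cyp2a genes (left) and the Cyp2b genes (middle) in each library, and the FPKM ratio of Cyp2a5 to Cyp2a12 (right), with all vertical axes from 0. The ratio is 3.15 to 3.83 in Prdx1 C52S (orange) and 0.825 to 1.62 in WT (blue). The Cyp2b sum of WT 9 is close to that of Prdx1 C52S 2, with 24.95 and 25.2 FPKM, and WT 8 holds Cyp2b10 alone.

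Cyp2a4, the near copy of Cyp2a5, did not follow the same order of libraries. Its FPKM was 19.0, 6.38 and 5.35 in Prdx1 C52S 1, 2 and 4, whereas WT 6, 8 and 9 had 0.891, 4.28 and 11.1. WT 9 had the second highest value, and the groups overlapped widely. The log2 fold change of 1.16 (SE 0.89, edgeR adjusted p = 0.44) was 0.38 without Prdx1 C52S 1 and was 2.41 without WT 9. Cyp2a4 made up between 0.945% (WT 6) and 6.48% (WT 9) of the Cyp2a4 and Cyp2a5 sum, so that misassigned reads could alter Cyp2a4 far more than Cyp2a5. With both rows summed, the log2 fold change was 2.09 (edgeR adjusted p = 0.0551). With WT 8 also left out it was 2.12 (edgeR adjusted p = 0.0343).

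Cyp2a22 had 12.5, 6.76 and 4.69 FPKM in Prdx1 C52S 1, 2 and 4, whereas WT 6, 8 and 9 had 3.73, 2.14 and 10.7. Again Prdx1 C52S 1 was highest and WT 9 second, and the groups overlapped (log2 fold change 0.74, SE 0.67, edgeR adjusted p = 0.516). The value was 0.29 without Prdx1 C52S 1, 0.33 without WT 8 and 1.74 without WT 9. It made up 1.99% to 8.10% of the Cyp2a12 and Cyp2a22 sum.

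Cyp2b9, the leading Cyp2b gene in 5 of the 6 libraries, varied widely. Its FPKM was 45.3, 23.9 and 9.94 in Prdx1 C52S 1, 2 and 4, whereas WT 6, 8 and 9 had 1.11, 0 and 23.1. WT 9 lay between Prdx1 C52S 2 and 4, whereas WT 6 and 8 were below all other libraries. In WT 8 the gene was listed at 0, and 3 fragments, the limit that a count of 0 allows, would be 12 estimated counts or 0.0772 FPKM. With all 6 libraries edgeR gave 1.89 on the log2 scale (SE 1.67, adjusted p = 0.509). It was 1.27 without Prdx1 C52S 1, 1.31 without WT 8 and 5.81 (SE 1.5, edgeR adjusted p = 0.0704) without WT 9.

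Cyp2b13 followed the same order of libraries at a far lower level, with 2.75, 0.944 and 0.347 FPKM in Prdx1 C52S 1, 2 and 4, whereas WT 6, 8 and 9 had 0.0549, 0 and 0.926. The 6 values rested on 0 to 433 estimated counts. On the log2 scale edgeR gave 2.21 (SE 1.53, adjusted p = 0.396), with 1.19 without Prdx1 C52S 1 and 5.75 without WT 9. Its share of the Cyp2b9 and Cyp2b13 sum was 5.72%, 3.80%, 3.37%, 4.73% and 3.86% in the 5 libraries with reads, a narrow range beside the spread of either gene. Misassigned reads of Cyp2b9 could alter Cyp2b13, and their part was not tested. Summed with Cyp2b9, Cyp2b13 gave a log2 fold change of 1.9 (edgeR adjusted p = 0.507).

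Cyp2b10, the CAR-inducible gene, was low in all libraries. It had 0.381, 0.296 and 0.76 FPKM in Prdx1 C52S 1, 2 and 4, whereas WT 6, 8 and 9 had 0.213, 1.79 and 0.942, from 38 to 315 estimated counts. WT 8, where Cyp2b9 and Cyp2b13 were listed at 0, had the highest value, and the groups overlapped. Its log2 fold change of -0.67 (SE 0.67, edgeR adjusted p = 0.562) was -0.09 without WT 8 and 0.44 with voom and quality weights, so no direction can be given.

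**Figure D3:**
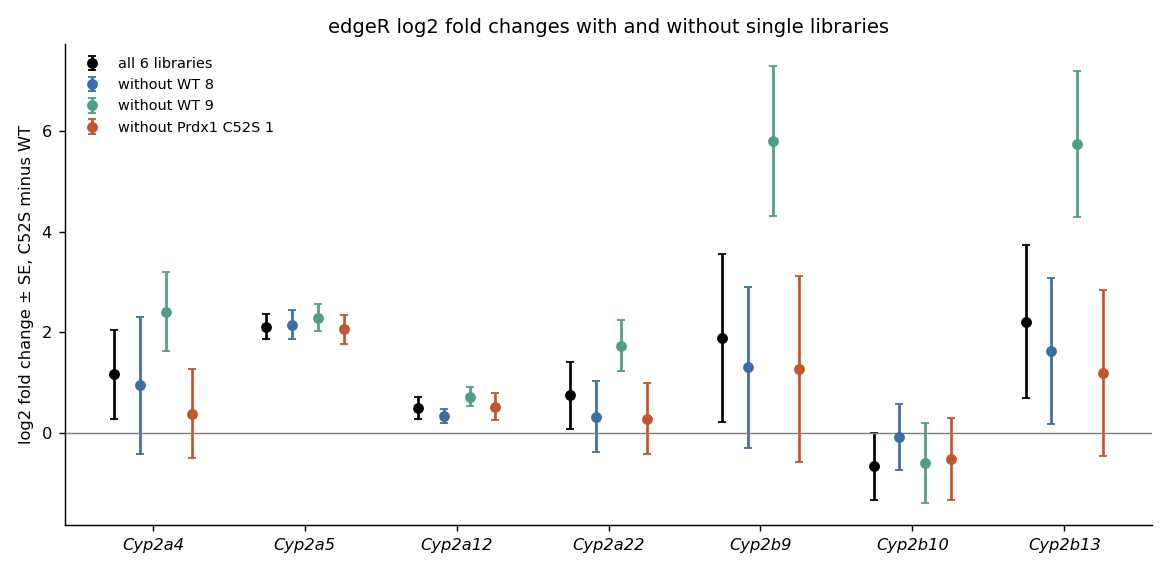
Log2 fold changes with SE from edgeR (vertical axis, Prdx1 C52S minus WT) of the 7 genes with all 6 libraries (black), without WT 8 (blue), without WT 9 (green) and without Prdx1 C52S 1 (orange). Cyp2a5 stays between 2.06 and 2.3, whereas Cyp2b9 runs from 1.27 to 5.81 and Cyp2b13 from 1.19 to 5.75.

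Ordered by FPKM, which is scaled to length, the mean levels in Prdx1 C52S ran from Cyp2a5 (497) over Cyp2a12 (143), Cyp2b9 (26.4), Cyp2a4 (10.2), Cyp2a22 (7.98) and Cyp2b13 (1.35) to Cyp2b10 (0.479). In that order the ranges of neighbours overlapped for Cyp2b9 and Cyp2a4, for Cyp2a4 and Cyp2a22, and for Cyp2b13 and Cyp2b10. In WT the order was Cyp2a5 (142), Cyp2a12 (122), Cyp2b9 (8.06), Cyp2a22 (5.54), Cyp2a4 (5.44), Cyp2b10 (0.981) and Cyp2b13 (0.327). Here Cyp2a5 and Cyp2a12 overlapped too, and Cyp2a12 and Cyp2b9 were the single pair of neighbours with separate ranges. In bulk liver, fewer cells that express a gene and less RNA per cell cannot be told apart.

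Other genes of the cluster are given by position. The pseudogene Cyp2a21-ps had 3.45, 2.96 and 6.32 FPKM in Prdx1 C52S 1, 2 and 4, whereas WT 6, 8 and 9 had 0.784, 1.63 and 1.46 (log2 fold change 2.02, edgeR adjusted p = 0.0719), without overlap of the groups. Without WT 8 it passed the test (2.10, edgeR adjusted p = 0.0494). It shares 41 read-length windows with Cyp2a5, so part of its count may belong there. Cyp2g1, an olfactory P450 next to Cyp2a5, was at 0.142 to 0.325 against 0.0391 to 0.0476 FPKM (2.67, edgeR adjusted p = 0.0767). The periportal and lung P450 Cyp2f2 was at 266 to 358 against 81.3 to 228.9 FPKM (1.16, edgeR adjusted p = 0.144). Neither passed the test, and Cyp2s1 (-2.27) and Cyp2t4 (0.36) were at or below 0.221 FPKM in every library except WT 8, where Cyp2s1 reached 2.01. Without WT 8 the Cyp2s1 value was 0.05. The pseudogene Cyp2b27-ps was listed at 0 in 5 libraries and at 0.0148 FPKM in WT 9.

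**Figure D4:**
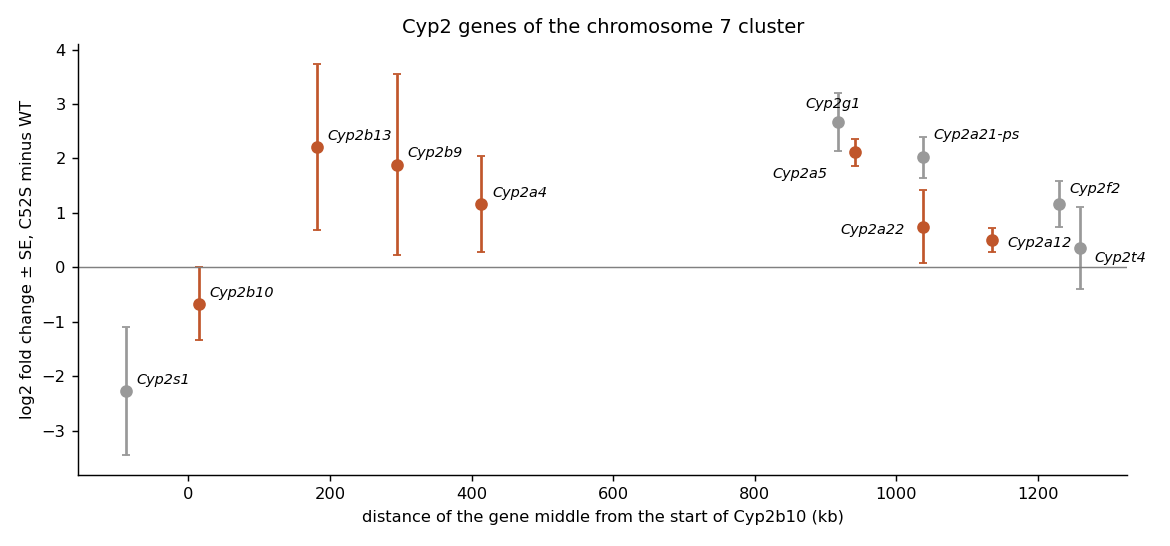
Log2 fold change with SE (vertical axis, edgeR, all 6 libraries) against the distance of each gene's middle from the start of Cyp2b10 in kb (horizontal axis), for the 7 genes (orange) and other Cyp2 genes of the cluster (grey). Cyp2a5 (2.11), Cyp2g1 (2.67) and Cyp2a21-ps (2.02) have shorter bars, whereas Cyp2b13 (2.21) and Cyp2b9 (1.89) have SE above 1.5. Cyp2g1 rests on only 7 to 59 estimated counts for each library.

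Of genes known to respond to CAR and the pregnane X receptor, 0 of 15 passed the test. Unadjusted p-values under 0.05 were found for 9 with higher values in Prdx1 C52S (11.5% of all genes) and 1 with lower values, and the median log2 fold change was 0.84. DESeq2 called 9 higher (7.39% of all genes) and 1 lower. The 3 with the smallest p were Cyp2c29 (282 against 65.9 FPKM, log2 fold change 2.35, edgeR adjusted p = 0.0601), the bile acid exporter Abcc3 (54.6 against 36.8, 0.84) and the glutathione transferase Gstm1 (2054 against 1090, 1.19). Without WT 8, 3 of 15 passed, all higher (2.7% of all genes), and these were Abcc2, Abcc3 and Aldh1a1, named after their values were seen.

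Receptors and regulators of these genes had 0 of 14 past the test, 3 with higher values and an unadjusted p under 0.05 (11.5% of all genes), and a median of 0.18. DESeq2 called 3, all higher (7.39% of all genes). Nr1i3, which encodes CAR, had 64.1, 60.3 and 53.9 FPKM in Prdx1 C52S 1, 2 and 4, whereas WT 6, 8 and 9 had 31.1, 13.8 and 49.8 (log2 fold change 1.14, SE 0.48, edgeR adjusted p = 0.189). The groups did not overlap, though WT 9 came close. The aryl hydrocarbon receptor Ahr was at 7.90 against 6.18 FPKM (0.64, edgeR adjusted p = 0.0719). It was the single regulator that passed without WT 8 (0.53, edgeR adjusted p = 0.0232), against 2.7% of all genes higher. Nfe2l2, which encodes NRF2, a known activator of Cyp2a5, was at 34.8 against 32.0 FPKM (0.42, edgeR adjusted p = 0.102, DESeq2 adjusted p = 0.00587). Its groups overlapped in FPKM but not after TMM scaling. With library totals only, its log2 fold change was 0.11 (edgeR adjusted p = 0.592), so its value depends on the scaling.

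Electron transfer partners of P450 enzymes had 0 of 5 past the test, 4 with higher and 1 with lower values at an unadjusted p under 0.05, against 11.5% of all genes higher and 26.3% in either direction. DESeq2 called all 5, 4 higher and 1 lower, against 16.5% of all genes. Without WT 8, edgeR called Cyb5b and Pgrmc1, both higher, and 2.7% of all genes higher. Cyb5b, a cytochrome b5, had 130.5, 134.6 and 126.4 FPKM in Prdx1 C52S 1, 2 and 4, whereas WT 6, 8 and 9 had 79.5, 62.0 and 74.4 (1.13, edgeR adjusted p = 0.068). It was also called with library totals, with no filter, by voom and by limma at both pseudocounts. The other listed cytochrome b5 gene, Cyb5a, had 252.8, 241.6 and 235.2 FPKM in Prdx1 C52S 1, 2 and 4. WT 6, 8 and 9 had 183, 160.6 and 230.8 (0.61, edgeR adjusted p = 0.144), and Cyb5a was not called without WT 8 (edgeR adjusted p = 0.0759). The heme-binding protein gene Pgrmc1 was at 0.73. P450 reductase, Por, which serves all these enzymes, had the opposite sign, with 75.2, 52.4 and 39.6 FPKM in Prdx1 C52S 1, 2 and 4, whereas WT 6, 8 and 9 had 126.2, 114.8 and 135.1 (-0.90, SE 0.26, edgeR adjusted p = 0.107). All Prdx1 C52S libraries were below all WT libraries.

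Sex-biased genes were listed because Cyp2a4, Cyp2b9 and Cyp2b13 belong to the female-biased set of mouse liver. Of 19 other female-biased genes, 15 could be tested, 0 passed, and the median was 0.10. At an unadjusted p under 0.05, 0 were higher (11.5% of all genes) and 2 lower, against 26.3% of all genes in either direction. The 2 were Fmo2 (2.75 against 13.0 FPKM, -1.91) and Prom1 (0.235 against 1.72, -2.45), the latter also made by bile duct cells. DESeq2 called 2, both lower, against 16.5% of all genes in either direction. Prom1 reached 3.67 FPKM in WT 8 and was at -1.45 without that library (edgeR adjusted p = 0.108). Slc22a27 had 8.58, 4.77 and 4.88 FPKM in Prdx1 C52S 1, 2 and 4, whereas WT 6, 8 and 9 had 3.35, 1.59 and 6.07 (0.95, edgeR adjusted p = 0.301). Of 20 male-biased genes, 19 could be tested and 0 passed, with 4 higher (11.5% of all genes) and 1 lower at an unadjusted p under 0.05 and a median of 1.05. DESeq2 called 4 higher (7.39% of all genes) and 1 lower of them, against 16.5% of all genes in either direction. The 3 with the smallest p were Ugt2b38 (33.6 against 18.8 FPKM, 1.11), the fatty acid elongase Elovl3 (45.1 against 8.60, 2.65) and Selenbp2 (16.6 against 87.8, -2.10). Without WT 8, Ugt2b38 alone of these lists passed (0.95, edgeR adjusted p = 0.0106), against 2.7% of all genes higher.

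Zonation genes were read beside Cyp2a5, which is pericentral. All 13 pericentral genes had positive fold changes, against 47% of all genes, with a median of 1.01. None passed, and 7 had an unadjusted p under 0.05, against 11.5% of all genes higher. DESeq2 called 7, all higher (7.39% of all genes). Without WT 8 the median was 0.68 and 7 of 13 passed, all higher, against 2.7% of all genes. Their summed FPKM was 3959 to 4783 in Prdx1 C52S and 3215, 1083 and 3085 in WT 6, 8 and 9. The 3 with the smallest p were the Wnt pathway genes Lgr5 (0.604 against 0.364 FPKM, 1.01) and Axin2 (1.46 against 1.16, 0.62), and the ornithine aminotransferase Oat (386 against 138, 1.71). Of 13 periportal genes 0 passed, and the median was 0.04. At an unadjusted p under 0.05, 2 were higher (11.5% of all genes) and 2 lower, against 26.3% of all genes in either direction. DESeq2 called 3 higher (7.39% of all genes) and 2 lower, against 16.5% in either direction. The smallest p were those of Sds (-0.45), Hal (0.62) and Cdh1 (-1.83), and Cdh1, at 38.8 FPKM in WT 8, was at -0.95 without that library. Without WT 8, 1 of 13 passed, the albumin gene Alb (0.36, edgeR adjusted p = 0.0483), against 2.7% of all genes higher. Alb was at 20760 to 22280 FPKM against 18120 to 19650. The part of zonation in the Cyp2a5 difference was not tested.

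**Figure D5:**
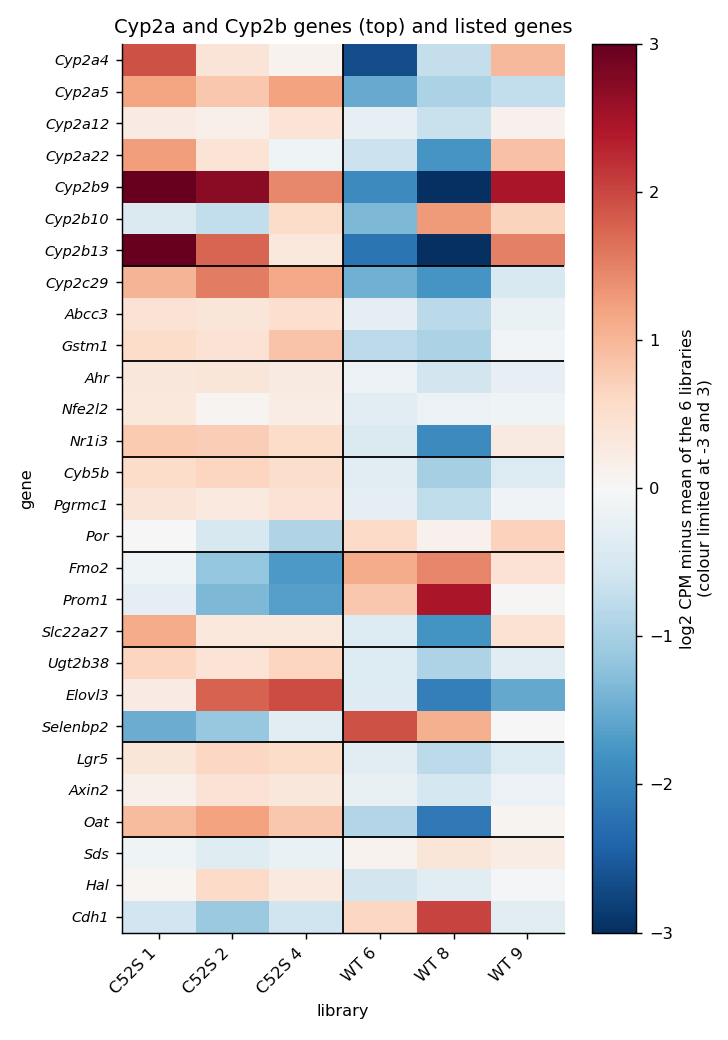
Log2 CPM minus the mean of the 6 libraries (colour, limited at -3 and 3) of the 7 Cyp2a and Cyp2b genes and, below the lines, the 3 genes with the smallest p of each list in the order of the text. Cyp2a5 is above 0.8 in all Prdx1 C52S libraries and below -0.7 in all WT libraries, whereas Cyp2b9 is positive in WT 9 (2.46) and at -8.28 in WT 8.

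Summed FPKM of bile duct, macrophage and stellate cell markers was lower in every Prdx1 C52S library than in any WT library, and the sums of endothelial and lymphocyte markers overlapped. Sums follow the most abundant genes, and single markers differed within the lists. Bile duct markers summed to 64.3 to 134 FPKM in Prdx1 C52S and 364.5, 871 and 235 in WT 6, 8 and 9 (10 of 10 above 0 in all libraries). Macrophage markers summed to 331 to 350.5 and 651 to 745 (10 of 11 above 0 in all, Timd4 at 0 in at least 1), and stellate cell markers to 70.5 to 90.2 and 101 to 146 (9 of 9). Sinusoidal endothelial markers (7 of 7) summed to 51.1 to 59.0 and 66.1, 32.2 and 65.8, and lymphocyte markers (8 of 8) to 13.9 to 25.9 and 13.3 to 23.9. The lymphocyte sum was mostly Ighm, at 11.8 to 23.8 against 9.13 to 14.6 FPKM (0.82). The other 7 lymphocyte markers had negative fold changes, and the T cell genes Cd8a (-2.31), Trac (-2.13) and Cd3e (-2.77) did not overlap between groups and were called lower without WT 8. Of the 11 macrophage markers, 8 were negative without overlap in FPKM, though Cd68 and Adgre1 overlapped after TMM scaling. Marco (1.44), Timd4 (1.58) and Clec4f (0.47, and -0.08 without WT 8) were positive. Of the 9 stellate markers, 6 were negative without overlap in FPKM, though Col3a1, Des and Dcn overlapped after TMM scaling. Lrat (0.67), Reln (0.53) and Acta2 (0.35) were positive. Over all genes, 42.8% did not overlap in FPKM, 6.09% with Prdx1 C52S above. After TMM scaling 34.9% did not overlap, 16.9% with Prdx1 C52S above. Without WT 8 the bile duct median was -1.58, and 7 of 11 macrophage markers were called lower, against 375 of all 19337 genes tested. These marker genes are named after their values were seen, and their part in the Cyp2a5 difference was not tested.

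The genes with the most similar pattern were taken by the root mean square difference of centred log2 CPM over the 6 libraries. They were sought among 10628 genes with at least 1 FPKM, and 10629 for Cyp2b10 and Cyp2b13, which are below that level. For Cyp2a5 these were Cyp2a21-ps (0.281) and the sterol exporter Abcg8 (0.422), and Cyp2a4 stood at 1.01. For Cyp2a12 P4hb (0.0587) is given, for Cyp2a22 Slc22a27 (0.282) and Sprr1a (0.35) were nearest, and for Cyp2a4 G6pc (0.737) and Slc22a29 (0.739). Cyp2b9 had Colec10 (1.82) and A4gnt (2.12), and Cyp2b13 stood nearer, at 1.67, but is below 1 FPKM. In WT 8, Cyp2b9 had 0, Colec10 18 and A4gnt 6 estimated counts, so these distances rest partly on low counts in that library. Cyp2b13 had A4gnt (1.12) and Cyp2c37 (1.31), and Cyp2b10 had Rps13-ps1 (0.41) and Rps6ka3 (0.476). The small value for Cyp2a12 goes with its small spread over the libraries.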

How the data were processed

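Poly(A)-selected liver RNA of 6 libraries (3 for each genotype) was sequenced as pairs of reads. Library totals of 60326469 to 76164949 estimated counts limit the precision of genes below about 1 FPKM, and intervals for a count of 0 cover counting error only. Per the file headers, the authors deposited FPKM beside a count for each gene. The deposited estimated counts are whole numbers whose low values peak at 4, so they were treated as estimates worth about 4 counts per fragment and rounded. Tools named in the submitters' processing notes, without their roles, are StringTie 1.3.4d, HISAT2 2.0.4, cutadapt 1.9, edgeR, DESeq2 and UMI-tools. The notes name mm9, but the coordinates of all 7 genes are identical to GENCODE M21 on GRCm38. The sources used here do not say how reads of paralogs were assigned.

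The test was that of edgeR 4.0.16 (R 4.3.3; filterByExpr, TMM, robust quasi-likelihood F-test, two-sided, Benjamini-Hochberg over 18931 genes, threshold 0.05), and all 7 genes passed the filter. The SE of a log2 fold change is its size over the root of F. The fit was also run on simulated data with a smaller spread between libraries than here. That run cannot tell how well the fit works on these libraries. Alternatives were DESeq2 1.42.0, voom with quality weights and limma 3.58.1 on log2(FPKM + 1) or log2(FPKM + 0.1), other scalings, no filter, close paralogs summed, and each library left out. Dividing counts by 4, and paralogs summed without WT 8, were added after seeing the data. Identities are from Biopython 1.88 global alignments of GENCODE M21 coding sequences, and sequence before gene starts is from RefSeq (7 of 7 matched).

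The 7 genes and the lists (7 of pathways, 6 of cell markers) were chosen with earlier results of these data known. Named are the 7 genes, the 3 genes of each pathway list with the smallest p, the 2 nearest genes of each member by pattern (1 of them is not reported here), Prdx1, Krt19, Glul, Alb and Clec4f, and the other Cyp2a and Cyp2b rows. Cyp2f2, Cyp2g1, Cyp2s1 and Cyp2t4 are named for their place in the cluster, outside this rule. Cyb5a is named beside Cyb5b, also outside it. Of the listed genes, Fcn3 was not analysed here.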

Additional observations from a re-analysis of the deposited data

How the results depend on the processing

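No paired analysis was possible because the groups share no replicate number. Of the 7 genes, edgeR with all libraries called 0, as did RLE and upper-quartile factors. Cyp2a5 alone was called (1 of 7, higher) by DESeq2, voom with quality weights, limma at either pseudocount, library totals only, no filter on low counts and counts divided by 4. Leaving out 1 library gave 0 or 1 of 7. Over all genes the calls were 0 with edgeR, 3122 with DESeq2 (1399 higher, 1723 lower), 2029 with voom (1023 and 1006), 133 and 280 with limma at pseudocounts of 1 and 0.1 (39 and 94, 59 and 221), 160 with library totals (35 and 125), 196 with no filter (105 and 91) and 83 with counts divided by 4 (43 and 40). Leaving out 1 library gave 0 to 897, the latter without WT 8 (522 and 375), and 132 without WT 9. The cause was not tested.

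Signs changed as follows. Cyp2b10 was at 0.44 with voom. Rps13-ps1 was at -0.18 with library totals, -0.0809 and -0.0724 with limma at pseudocounts of 1 and 0.1, -0.51 without Prdx1 C52S 4 and -0.21 without WT 6 (-0.51 to 0.678 with 1 library left out). Sprr1a was at -0.02 without Prdx1 C52S 1 and -0.0531 without WT 8 (up to 1.52 without WT 9), and Prdx1 at -0.0056 with library totals. Without WT 8, Clec4f was at -0.0819 and Cyp2s1 at 0.0508, with 0.874 without WT 9 and -3.22 without Prdx1 C52S 1 at the other ends. Cyp2t4 was at -0.0928 with voom, -0.0109 with limma at a pseudocount of 0.1 and -0.22 without Prdx1 C52S 4 (up to 0.838 without Prdx1 C52S 2). The log2 fold changes of Cyp2a4, Cyp2a5, Cyp2a12, Cyp2a22, Cyp2b9 and Cyp2b13 were positive under every alternative run, from 0.38 to 2.41, 1.80 to 2.37, 0.23 to 0.72, 0.29 to 1.74, 1.27 to 5.81 and 0.76 to 5.75.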

Other observations

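Among the 78 other Cyp genes tested, 58 had positive and 20 negative log2 fold changes, against 47% of all genes positive, with a median of 0.52. edgeR with all 6 libraries called 0 of them, while 27 higher and 4 lower ones had an unadjusted p under 0.05, against 11.5% of all genes higher and 26.3% in either direction. Without WT 8, 80 could be tested, and 10 were called higher and 1 lower, against 2.7% of all genes higher and 4.64% in either direction. A larger log2 fold change than that of Cyp2a5 was found for 6 of the 78. By mean FPKM, Cyp2a5 ranked 95 among the 29734 genes in Prdx1 C52S and 286 in WT. The order of libraries by FPKM was the same for Cyp2b9 and Cyp2b13, and Prdx1 C52S 1 was highest for both, for Cyp2a4 and for Cyp2a22. WT 9 was above Prdx1 C52S 4 for these 4 genes, and WT 6 and WT 8 were the lowest libraries for each of them.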
